A study of Homo sapiens with 12 samples.

Results

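The integrated stress response was described through 10 genes chosen by their symbols: the transcription factors ATF4, ATF3, ATF5, DDIT3, CEBPB and CEBPG, and the genes TRIB3, CHAC1, SESN2 and PPP1R15A, whose transcription ATF4 or its partners are known to control. They are 10 of the 26485 genes in the deposited tables, and all 10 had enough reads to be among the 14865 genes tested. These genes and the gene lists used below were chosen with earlier results of these data known. Their shares set beside those of all genes are therefore descriptions and no test. OVCAR8 cells, an established line of human ovarian cancer, were grown in medium with serum, treated for 7 h and used for RNA sequencing. Control cells received vehicle, EC359 cells received 150 nM EC359, a small-molecule inhibitor of the leukemia inhibitory factor receptor (LIFR), trametinib cells received 100 nM trametinib, an inhibitor of the kinase MEK, and combination cells received both agents at these doses. Each of the 4 groups had 3 libraries, and no label says whether these came from separate cultures, so the p-values measure the spread between libraries only, which may be technical. All libraries come from 1 cell line at 1 dose of each agent and 1 time.

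In the integrated stress response, kinases that sense endoplasmic reticulum stress, amino acid shortage, double-stranded RNA or heme shortage phosphorylate the translation factor eIF2. General protein synthesis then slows, while the ATF4 message, which carries short upstream reading frames, is translated more. ATF4 pairs with other leucine-zipper (bZIP) proteins and switches on genes for amino acid supply, redox defence and, when stress lasts, cell death. Because ATF4 is controlled largely at translation, its mRNA level and its protein level can differ, and only mRNA was measured here.

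The libraries held 24790392 to 32467283 assigned reads each, and levels are given as CPM (each gene's reads divided by the library's total, scaled to a common size) after normalization for library composition. As a check of the trametinib label, 4 genes of ERK output (DUSP6, SPRY4, ETV5 and PHLDA1) were all lower with trametinib than in control, with SPRY4 at 0.247 CPM against 19.5 CPM in control. Of 9 epithelial ovarian cancer markers, 7 were above 1 CPM in every group, while KRT19 and MUC16 were at or near 0. Of 12 markers of blood, vessel, stromal, liver and fat cells, 2 were above 1 CPM, CD68 and COL1A1. The summed level of these 12 markers was 465 to 492 CPM in control, 278 to 293 CPM with EC359, 564 to 577 CPM with trametinib and 365 to 388 CPM in the combination, and most of it was COL1A1. Its part in the results was not tested. In bulk RNA of this kind, a change in the RNA of each cell and a change in the share of cells that make it cannot be told apart.

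The sequences in front of the genes show where the letters known to be bound by ATF and C/EBP proteins lie. RefSeq promoter windows (GRCh38.p14, from 250 bases before to 50 bases after the start) were found for 10 of 10 genes and searched on both strands for 3 motifs: TGATGNAA, the core of the composite C/EBP-ATF element, TGACGTCA, the cAMP response element, and TGANTCA, the AP-1 element bound by FOS, JUN and ATF proteins. The first was in 2 of the 10 windows (ATF3 and CHAC1), against 3.62% of the 35116 windows in the table. The second was in 1 window (PPP1R15A), against 1.85%, and the third was in 2 windows (ATF5 and DDIT3), against 7.71%. A match is a run of letters and not a measured binding site, and a window without one may hold variants of the same element. In CHAC1 the element is on the opposite strand, so that its reverse complement is printed. The capitals mark the match in the stretches from chr1:212565176-212565263 (plus strand, ATF3), chr15:40953222-40953309 (plus strand, CHAC1), chr19:48872323-48872391 (plus strand, PPP1R15A) and chr12:57520709-57520764 (minus strand, DDIT3), each read 5′ to 3′ on the strand of its gene.
ATF3: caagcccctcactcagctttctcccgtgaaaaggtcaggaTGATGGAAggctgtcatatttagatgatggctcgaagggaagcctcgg
CHAC1: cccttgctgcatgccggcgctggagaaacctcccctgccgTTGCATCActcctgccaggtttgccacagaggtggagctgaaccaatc
PPP1R15A: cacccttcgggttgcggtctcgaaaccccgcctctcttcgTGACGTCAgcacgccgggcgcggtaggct
DDIT3: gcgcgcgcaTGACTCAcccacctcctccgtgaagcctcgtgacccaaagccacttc

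Counted from the RefSeq start, the match lay at positions -191 to -184 in ATF3, -209 to -202 in CHAC1, -58 to -51 in PPP1R15A and -241 to -235 in DDIT3. The ATF3 window belongs to the upstream of several starts in the deposited annotation.

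More of the 10 genes rose by at least 2-fold with EC359, alone or combined, than with trametinib alone. A gene was called a differentially expressed gene (DEG) against control when edgeR's adjusted p was under 0.05 and the change was at least 2-fold. With EC359, 6 of the 10 genes were DEGs and higher (ATF3, TRIB3, CHAC1, SESN2, PPP1R15A and CEBPB), where 4.19% of all genes tested were higher. None was a lower DEG, where 2.79% of all genes were. With trametinib, 1 gene was a higher DEG (ATF3), against 0.478% of all genes, and 0 were lower, against 0.955%. In the combination, 5 genes were higher DEGs (ATF4, ATF3, SESN2, PPP1R15A and CEBPB), against 7.27% of all genes, and 0 were lower, against 5.87%. The median log2 fold change of the 10 genes was 1.11 with EC359, 0.01 with trametinib and 0.92 in the combination, where the median of all genes tested lay at -0.01, 0.00 and -0.01. The 3 comparisons share their control libraries. Summed over the 10 genes, expression was 731, 730.3 and 722 CPM in the control libraries, 2230.5, 2245 and 2169 CPM with EC359, 696, 701 and 719 CPM with trametinib and 2294, 2332 and 2316 CPM in the combination. All EC359 and combination libraries thus lay far above the other 6, and ATF4 and PPP1R15A supplied most of the sum.

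**Figure D1:**
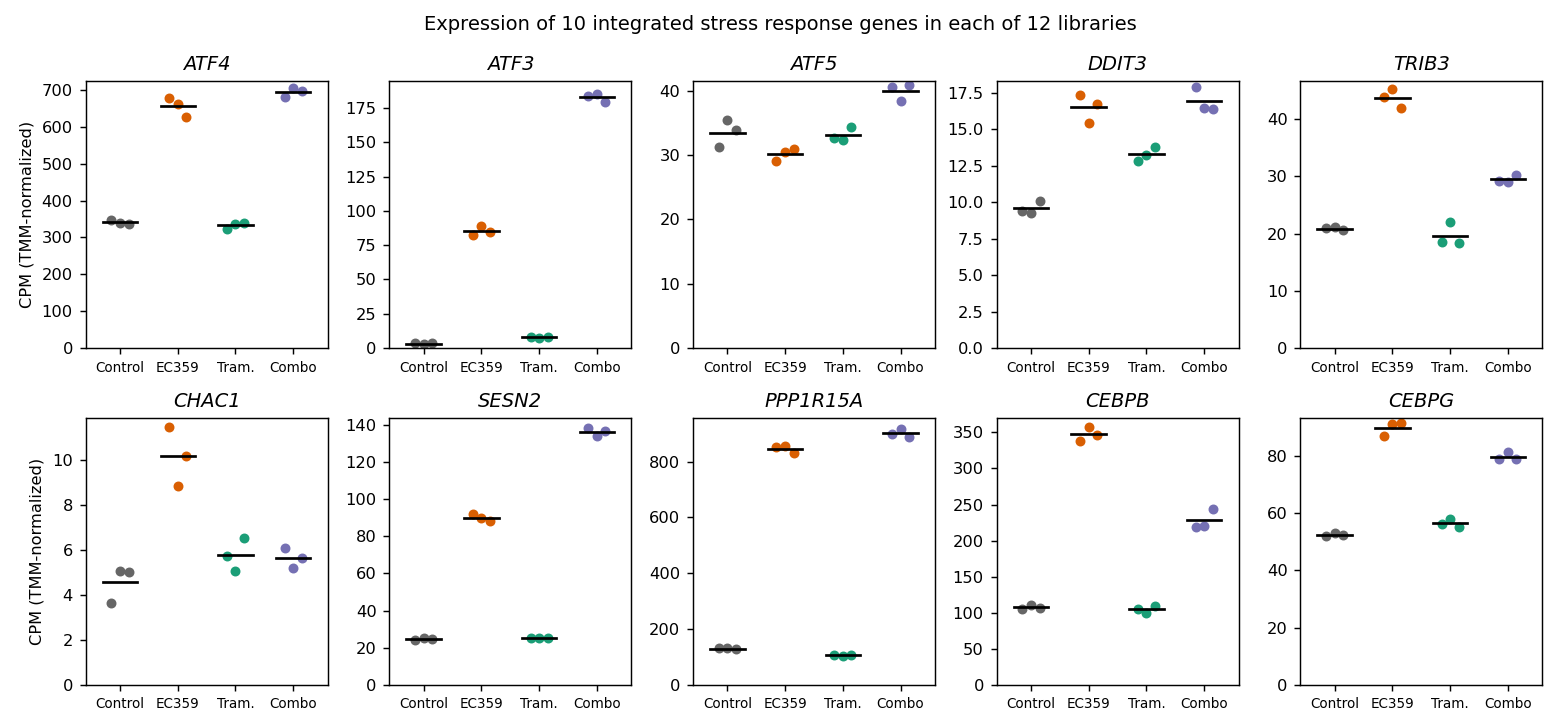
Level of each of the 10 genes (vertical axis, normalized CPM, starting at 0) in the 3 libraries of each group (points) with the group mean (bar). ATF4, SESN2 and PPP1R15A were high in both groups with EC359, ATF3 was highest in the combination with a mean of 183 CPM, and TRIB3, CHAC1 and CEBPB were highest with EC359 alone.

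ATF4, the factor that gives the response its shape, lies on chromosome 22 from 39520559 to 39522686 (hg38, plus strand, 2 exons). Its level was 348, 338 and 337 CPM in the control libraries, 679, 661 and 627 CPM with EC359, 324, 336 and 339.9 CPM with trametinib and 681, 705 and 696 CPM in the combination. The libraries with EC359, alone or combined, all lay well above the others, and control and trametinib overlapped. Compared to control, EC359 raised ATF4 mRNA by a log2 fold change of 0.94 (SE 0.025, edgeR adjusted p = 9.2e-37), which is 1.92-fold and just short of a DEG. In the combination the log2 fold change was 1.03 (SE 0.025, edgeR adjusted p = 1.4e-38) or 2.04-fold, just inside the threshold. Without the correction for library composition it was 0.89, under 2-fold. With trametinib alone it was -0.03 (95% confidence interval -0.08 to 0.02, edgeR adjusted p = 0.361). The combination libraries were above the EC359 libraries by 0.08 on the log2 scale (edgeR adjusted p = 0.004), but without EC359 replicate 3 the difference was 0.05 and its adjusted p 0.119. Part of the ATF4 reads were shared with other places, since its count was not whole in 10 of 12 libraries.

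ATF3, a bZIP factor that ATF4 induces and that can repress or activate stress genes, showed the largest change of the 10 genes in every comparison with control. It lies on chromosome 1 from 212565334 to 212620777 (plus strand, 6 exons after merging overlapping ones). Control libraries held 3.46, 2.79 and 3.62 CPM of ATF3, EC359 libraries 82.4, 89.1 and 84.6 CPM, trametinib libraries 8.46, 7.25 and 8.40 CPM and combination libraries 183, 185 and 179.7 CPM. No 2 groups overlapped, and the order was combination, EC359, trametinib and control. The rise was 25.9-fold with EC359 (log2 fold change 4.70, SE 0.062, edgeR adjusted p = 3.5e-53), 2.45-fold with trametinib (1.29, SE 0.095, edgeR adjusted p = 4.5e-17) and 55.5-fold in the combination (5.79, SE 0.057, edgeR adjusted p = 1.4e-59). Among all 14865 genes ATF3 ranked 10 by log2 fold change with EC359, 78 with trametinib and 3 in the combination. It was 2.14-fold higher in the combination than with EC359 alone (edgeR adjusted p = 2.5e-33).

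DDIT3 encodes CHOP, a C/EBP-family partner of ATF4 linked to cell death under long stress, and lies on chromosome 12 from 57516588 to 57520517 (minus strand, 3 exons). It passed edgeR's test with each agent alone, and its levels with EC359 and in the combination were close. DDIT3 read 9.39, 9.29 and 10.1 CPM in control, 17.4, 15.4 and 16.7 CPM with EC359, 12.9, 13.2 and 13.8 CPM with trametinib and 17.9, 16.5 and 16.4 CPM in the combination. Trametinib libraries stood between control and the other groups, and EC359 and combination libraries overlapped. The log2 fold change against control was 0.78 with EC359 (SE 0.075, edgeR adjusted p = 1.7e-13), 0.47 with trametinib (SE 0.076, edgeR adjusted p = 1.2e-06) and 0.82 in the combination (SE 0.075, edgeR adjusted p = 2.0e-14), all under 2-fold. Between the combination and EC359 it differed by 0.04 (95% confidence interval -0.11 to 0.18, edgeR adjusted p = 0.711), and the sign turned without EC359 replicate 2. MARS overlaps DDIT3 on the other strand, and the authors counted reads by strand.

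ATF5, a further bZIP factor whose message is translated under stress in the manner of ATF4, moved little. The gene is on chromosome 19 from 49928702 to 49933936 (plus strand, 5 exons), where MIR4751 overlaps it on the same strand and IL4I1 and NUP62 on the other. Its level was 31.3, 35.4 and 33.9 CPM in control, 29.2, 30.5 and 31.0 CPM with EC359, 32.6, 32.3 and 34.4 CPM with trametinib and 40.6, 38.4 and 40.9 CPM in the combination. Only the combination libraries lay above all others. Against control the log2 fold change was -0.15 with EC359 (edgeR adjusted p = 0.010, up to 0.102 over the alternatives), -0.02 with trametinib (edgeR adjusted p = 0.827) and 0.25 in the combination (edgeR adjusted p = 1.1e-05). The combination was higher than EC359 by 0.40 (SE 0.051, edgeR adjusted p = 1.8e-09). ATF5 was the single gene of the 10 with a negative value for EC359.

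**Figure D2:**
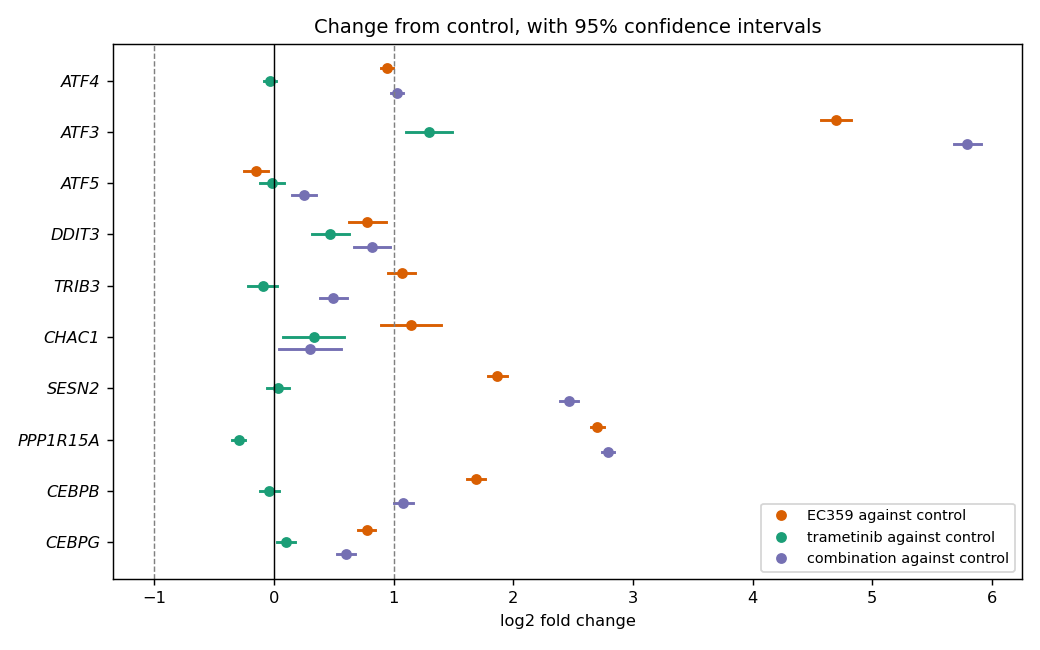
Log2 fold change against control (horizontal axis) of the 10 genes with EC359, trametinib and the combination, as edgeR estimates (points) with 95% confidence intervals (bars), where the dashed lines mark a 2-fold change. ATF3 reached 4.70 with EC359 and 5.79 in the combination, while all trametinib values except ATF3 (1.29) lay inside the dashed lines.

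Of the genes that act back on the pathway, PPP1R15A rose strongly. It encodes GADD34, which brings a phosphatase to eIF2 and restores protein synthesis, and lies on chromosome 19 from 48872392 to 48876062 (plus strand, 3 exons). PPP1R15A stood at 133, 130.3 and 127 CPM in control, 850.4, 856 and 832 CPM with EC359, 108, 102 and 108 CPM with trametinib and 899, 916 and 887 CPM in the combination. The trametinib libraries were below every control library, and the combination libraries above every EC359 library. EC359 raised it 6.51-fold (log2 fold change 2.70, SE 0.026, edgeR adjusted p = 2.7e-60) and the combination 6.93-fold (2.79, SE 0.026, edgeR adjusted p = 1.3e-60), while with trametinib the log2 fold change was -0.30 (SE 0.028, edgeR adjusted p = 2.5e-13). By size of the rise it ranked 61 of 14865 genes with EC359 and 72 in the combination. The step from EC359 to the combination was 0.09 (SE 0.023, edgeR adjusted p = 0.0009).

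TRIB3, a pseudokinase that binds ATF4 and CHOP and restrains them, is on chromosome 20 from 380629 to 397559 (plus strand, 6 exons). The control libraries gave 20.9, 21.1 and 20.6 CPM, the EC359 libraries 43.9, 45.3 and 42.0 CPM, the trametinib libraries 18.6, 21.95 and 18.4 CPM and the combination libraries 29.1, 29.0 and 30.2 CPM. EC359 libraries were the highest, the combination lay apart between EC359 and control, and control and trametinib overlapped. The rise was 2.10-fold with EC359 (log2 fold change 1.07, SE 0.056, edgeR adjusted p = 3.5e-24), and 0.93 on the log2 scale with total counts only, which is under 2-fold. In the combination the log2 fold change was 0.50 (SE 0.058, edgeR adjusted p = 4.6e-11), and against EC359 it was -0.57 (SE 0.055, edgeR adjusted p = 2.9e-13).

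CHAC1, an enzyme that breaks down glutathione, was one of the genes lower in the combination than with EC359. It is on chromosome 15 from 40953438 to 40956519 (plus strand, 3 exons) and was weakly expressed, with 102 to 272 reads per library, so its errors are the widest of the 10. Control libraries held 3.64, 5.07 and 5.003 CPM, EC359 libraries 11.5, 8.86 and 10.2 CPM, trametinib libraries 5.74, 5.05 and 6.52 CPM and combination libraries 6.11, 5.22 and 5.64 CPM. EC359 stood above the other groups, and trametinib overlapped both control and the combination. With EC359 the rise was 2.21-fold (log2 fold change 1.15, SE 0.12, edgeR adjusted p = 1.1e-11). The value was 0.33 with trametinib (edgeR adjusted p = 0.041, up to 0.318 over the alternatives) and 0.30 in the combination (edgeR adjusted p = 0.034, up to 0.282). From EC359 to the combination CHAC1 fell by 0.85 on the log2 scale (SE 0.12, edgeR adjusted p = 7.0e-08), and the combination differed from trametinib by -0.03 (95% confidence interval -0.29 to 0.22).

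SESN2, which restrains mTORC1 when amino acids are short and protects against oxidative damage, moved the other way. The gene spans chromosome 1 from 28259452 to 28282491 (plus strand, 10 exons). SESN2 measured 24.1, 25.0 and 24.8 CPM in control, 91.9, 90.1 and 88.1 CPM with EC359, 25.2, 25.3 and 25.3 CPM with trametinib and 138, 134 and 137 CPM in the combination. Both groups with EC359 lay apart from control, and the combination from EC359. It rose 3.65-fold with EC359 (log2 fold change 1.87, SE 0.039, edgeR adjusted p = 4.1e-43) and 5.53-fold in the combination (2.47, SE 0.038, edgeR adjusted p = 4.8e-50), and the value with trametinib was 0.04 (edgeR adjusted p = 0.625). The combination was above EC359 by 0.60 (SE 0.033, edgeR adjusted p = 8.0e-23).

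CEBPB and CEBPG are C/EBP factors that pair with ATF4 on composite elements, and both peaked with EC359 alone. CEBPB, on chromosome 20 from 50190583 to 50192691 (plus strand, 1 exon, with CEBPB-AS1 on the other strand), read 106, 110.04 and 107 CPM in control, 338, 357 and 347 CPM with EC359, 105, 99.7 and 109 CPM with trametinib and 219, 221 and 244 CPM in the combination. Its EC359 libraries were the highest, the combination libraries lay apart below them, and control and trametinib overlapped. The rise was 3.23-fold with EC359 (log2 fold change 1.69, SE 0.036, edgeR adjusted p = 1.3e-22) and 2.12-fold in the combination (1.08, SE 0.037, edgeR adjusted p = 1.4e-18). With total counts only the combination value was 0.94, under 2-fold. The combination was lower than EC359 by a log2 fold change of -0.61 (SE 0.034, edgeR adjusted p = 1.8e-13).

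CEBPG, on chromosome 19 from 33373669 to 33382686 (plus strand, 3 exons), stayed under 2-fold in each comparison with control. It read 52.0, 53.1 and 52.5 CPM in control, 86.9, 91.2 and 91.5 CPM with EC359, 56.1, 58.1 and 55.2 CPM with trametinib and 79.1, 81.5 and 78.9 CPM in the combination. No 2 groups overlapped, with the order EC359, combination, trametinib and control. The log2 fold change was 0.77 with EC359 (SE 0.036, edgeR adjusted p = 1.7e-26), 0.10 with trametinib (SE 0.037, edgeR adjusted p = 0.033, up to 0.152 over the alternatives) and 0.60 in the combination (SE 0.036, edgeR adjusted p = 1.1e-21). It was lower in the combination than with EC359 by -0.17 (edgeR adjusted p = 4.2e-05).

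Compared to EC359 alone, the combination had higher levels of some of the 10 genes and lower levels of others. Here and in the comparisons that follow, the call was edgeR's adjusted p under 0.05 with no minimum fold change. ATF4, ATF3, ATF5, SESN2 and PPP1R15A were higher in the combination than with EC359 (5 of 10, against 24.1% of all genes), and TRIB3, CHAC1, CEBPB and CEBPG were lower (4 of 10, against 25.2%). DDIT3 passed in neither direction. ATF3 alone differed by 2-fold or more.

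The combination exceeded trametinib alone in 9 of the 10 genes (all but CHAC1), against 35.3% of all genes, and 0 lay below it, against 32.9%. The largest differences were those of ATF3 (log2 fold change 4.5), PPP1R15A (3.09) and SESN2 (2.43). EC359 was compared with trametinib only after the data had been seen, to place the groups in order. There, 9 genes were higher with EC359, against 31.6% of all genes, and 1 was lower, ATF5 at -0.13, against 31.2%. The ATF5 call was lost with DESeq2 and without EC359 replicate 1, EC359 replicate 2 or trametinib replicate 3, where the adjusted p reached 0.132, and the DDIT3 call (0.31) had an adjusted p of 0.065 with total counts only.

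The interaction asks whether the combination's log2 effect equals the sum of the effects of its agents. It was positive for 4 genes, against 14.4% of all genes, with 0.56 for SESN2 (SE 0.057, edgeR adjusted p = 7.5e-12), 0.42 for ATF5 (SE 0.072, edgeR adjusted p = 4.6e-06), 0.39 for PPP1R15A (SE 0.036, edgeR adjusted p = 7.3e-13) and 0.12 for ATF4 (SE 0.035, edgeR adjusted p = 0.0088). The ATF4 call was lost without EC359 replicate 3 (0.09, adjusted p 0.065), without trametinib replicate 1 (0.10, adjusted p 0.053) and with total counts only (0.09, adjusted p 0.056). It was negative for 5 genes, against 15.9% of all genes. These were CHAC1 (-1.18, SE 0.18, edgeR adjusted p = 4.3e-07), CEBPB (-0.57, SE 0.052, edgeR adjusted p = 6.6e-09), TRIB3 (-0.48, SE 0.081, edgeR adjusted p = 4.5e-06), DDIT3 (-0.43, SE 0.11, edgeR adjusted p = 0.0009) and CEBPG (-0.27, SE 0.051, edgeR adjusted p = 2.6e-05). For ATF3 the interaction was -0.20 with a 95% confidence interval of -0.40 to 0.01 (edgeR adjusted p = 0.155), so a departure from the sum was not shown at this number of libraries.

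**Figure D3:**
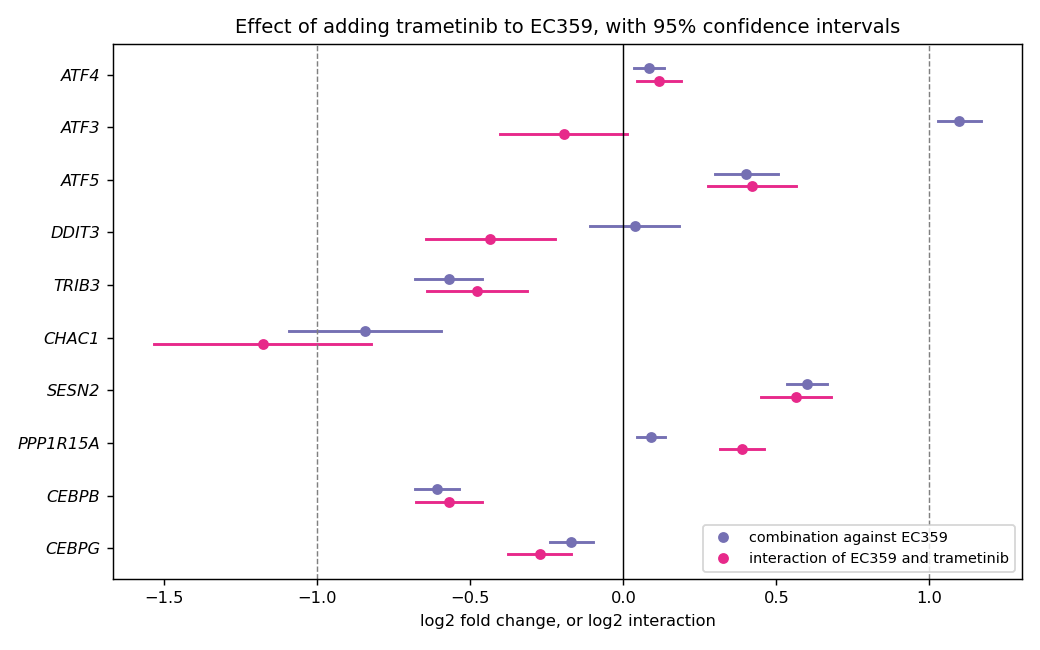
Log2 fold change of the combination against EC359, and the log2 interaction of both agents (horizontal axis), for the 10 genes as edgeR estimates with 95% confidence intervals. SESN2 (0.60 and 0.56) and ATF5 (0.40 and 0.42) were to the right of 0 in both, CHAC1 (-0.85 and -1.18), CEBPB and TRIB3 to the left in both, and ATF3 stood at 1.10 in the first with an interaction interval that reached 0.01.

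Levels can be set side by side between genes once they are divided by exon length. In control, ATF4 was the most abundant of the 10 at 168 CPM per kb, followed by PPP1R15A at 54.6 and CEBPB at 51.0 CPM per kb, and ATF3 was the least abundant at 1.29 CPM per kb. In the combination PPP1R15A led with 378 CPM per kb, ATF4 followed with 342 CPM per kb, and ATF3 had moved from rank 10 to rank 4 with 71.9 CPM per kb. CHAC1 was then the lowest, at 3.62 CPM per kb. The 10 genes are short and have few exons, with a median of 3 exons and 2464 exonic bases against 9 exons and 3194 bases over the genes tested.

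Across the 12 libraries, which share 4 treatments and so are not independent points, the log2 levels of ATF4 and PPP1R15A had a Pearson r of 0.996, and those of ATF4 and SESN2 0.988. CEBPB and CEBPG, the pair of C/EBP factors, had 0.979. ATF5 went with none of these, and its r with CHAC1 was -0.42. The genes with a pattern most like that of ATF4 among 9838 compared were EIF1 (r = 0.999), RELT, HSPA6, MAP1LC3B and MAFG. For ATF3 they were ZBTB10 (r = 0.999), GABARAPL1, SPAG9, KLF5 and SMG1, and for DDIT3 they were OASL (r = 0.982), PLXNB2, MAP4, SH3PXD2A and ZMIZ1.

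Upstream of ATF4, the gene of 1 sensor of the pathway, PERK, rose by more than 2-fold. Of 8 genes for eIF2 kinases and their relays, 1 (12.5%) was a higher DEG with EC359 and in the combination, against 4.19% and 7.27% of all genes. This was EIF2AK3, which encodes PERK, the kinase of the endoplasmic reticulum. EIF2AK3 rose from 16.0 ± 0.547 CPM in control (SD, n = 3) to 36.2 ± 2.68 CPM with EC359 and 55.0 ± 3.15 CPM in the combination (log2 fold changes 1.18 and 1.78). The list's median was -0.22 with EC359 and -0.32 in the combination. The kinases EIF2AK1 (HRI), EIF2AK2 (PKR) and EIF2AK4 (GCN2) had log2 fold changes of -0.21, -0.22 and -0.34 with EC359 and -0.35, -0.29 and -0.42 in the combination. Among the relays, GCN1 and KIAA0141 (DELE1) had 0.25 and 0.32 with EC359, and IMPACT and OMA1 had -0.50 and -0.29. OMA1, the mitochondrial protease that cleaves DELE1, was at -0.91 in the combination, short of a DEG.

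A further list held 15 genes grouped with eIF2, its exchange factor eIF2B and its phosphatase. With EC359 and in the combination 1 (6.67%) was a higher DEG, near the share of all genes (4.19% and 7.27%). This was PPP1R15B, the constitutive counterpart of PPP1R15A, with 40.9 ± 1.49 CPM in control (SD, n = 3), 95.5 ± 2.85 CPM with EC359 and 128 ± 1.45 CPM in the combination (log2 fold changes 1.22 and 1.65). The other genes named by size were EIF2B1 (-0.52 and -0.64), a subunit of the exchange factor, and EIF2S1 and EIF2B2 in the combination (-0.36 and -0.33). With EC359 they included EIF2A and DNAJC3 (0.32 and 0.29), which encode no subunit of eIF2, eIF2B or the phosphatase. The medians were -0.03 and -0.08.

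Downstream, 45 of 48 listed ATF4 target genes outside the 10 were tested, and 10 (22.2%) were higher DEGs with EC359, against 4.19% of all genes, and 9 (20%) in the combination, against 7.27%. Lower DEGs were 0 in both, against 2.79% and 5.87% of all genes. The median log2 fold change was 0.35 in both comparisons, against -0.01 over all genes. GDF15, NUPR1 and FGF21, which are widely used as readouts of ATF4, were at or near 0 in these cells and were not tested. The largest rises were those of KLHL24 (3.08 with EC359 and 3.56 in the combination), SLC7A11 (2.33 and 2.67), the cystine transporter, SLC38A2 (2.09 and 2.64), a carrier of neutral amino acids, DDIT4 (2.59 and 1.64), an inhibitor of mTORC1, and VEGFA (2.09 and 2.07), the vascular growth factor. With trametinib 0 were higher DEGs and 1 (2.22%) was lower, against 0.478% and 0.955% of all genes. The lower one was STC2 (-1.25), which was named after its value was seen. SLC7A11 had 31.5 ± 1.71 CPM in control (SD, n = 3), 158 ± 7.22 CPM with EC359, 54.3 ± 1.32 CPM with trametinib and 199.9 ± 4.35 CPM in the combination.

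By role, a grouping made after the values were seen, the amino acid transporters and the tRNA synthetases among these targets did not look alike. Of 8 transporters, 4 were higher DEGs with EC359 and 5 in the combination, against 4.19% and 7.27% of all genes. Their medians were 0.89 and 1.55. Of 11 aminoacyl-tRNA synthetases, 0 were DEGs in either, which is near these shares for so few genes. By edgeR's adjusted p under 0.05 with no minimum fold change, 9 were higher and 0 lower with EC359. In the combination 8 were higher and 1 lower by that rule, for which the share of all genes was not counted. The medians of the synthetases were 0.19 and 0.21, with a highest value of 0.43. Of 13 enzymes of amino acid and one-carbon metabolism, 0 were DEGs with EC359 and 1 in the combination, again near these shares. That gene was CTH (1.92), which makes cysteine. With EC359 alone CTH had 0.998 (edgeR adjusted p = 1.0e-15), just short of a DEG. Asparagine synthetase, ASNS, a textbook ATF4 target named here for that reason, had 0.70 with EC359 and 0.96 in the combination, under 2-fold.

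Of the 45 ATF4 targets tested, 17 (37.8%) were higher in the combination than with EC359, against 24.1% of all genes, and 12 (26.7%) were lower, close to the 25.2% of all genes. With at least 2-fold required, 2 were higher and 0 lower, and the share of all genes at this limit was not counted. SLC38A2 (0.55), KLHL24 (0.49) and SLC7A11 (0.34) were among the higher, DDIT4 (-0.95) was among the lower, and VEGFA (-0.02) was in neither group. By interaction, 7 (15.6%) were positive and 8 (17.8%) negative, shares near those of all genes (14.4% and 15.9%), with -1.09 for DDIT4.

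Of 12 CHOP target genes, 5 of which are also in the ATF4 list, 7 (58.3%) were higher DEGs with EC359 and 7 (58.3%) in the combination, against 4.19% and 7.27% of all genes. In both comparisons these included DDIT4, SLC38A2 and SLC3A2, which had already been counted with the ATF4 targets. SLC3A2 is named for this overlap. The list medians were 1.25 and 1.24, against -0.01 over all genes in both. BBC3, which encodes the death factor PUMA, rose from 3.03 ± 0.364 CPM in control (SD, n = 3) to 39.9 ± 1.29 CPM with EC359 and 49.0 ± 1.64 CPM in the combination, log2 fold changes of 3.73 and 4.02. DNAJB9, a chaperone of the endoplasmic reticulum that is also in the list of ATF6 and XBP1 targets below, had 1.97 and 1.98. DDIT3 itself had 0.78 and 0.82, under 2-fold.

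**Figure D4:**
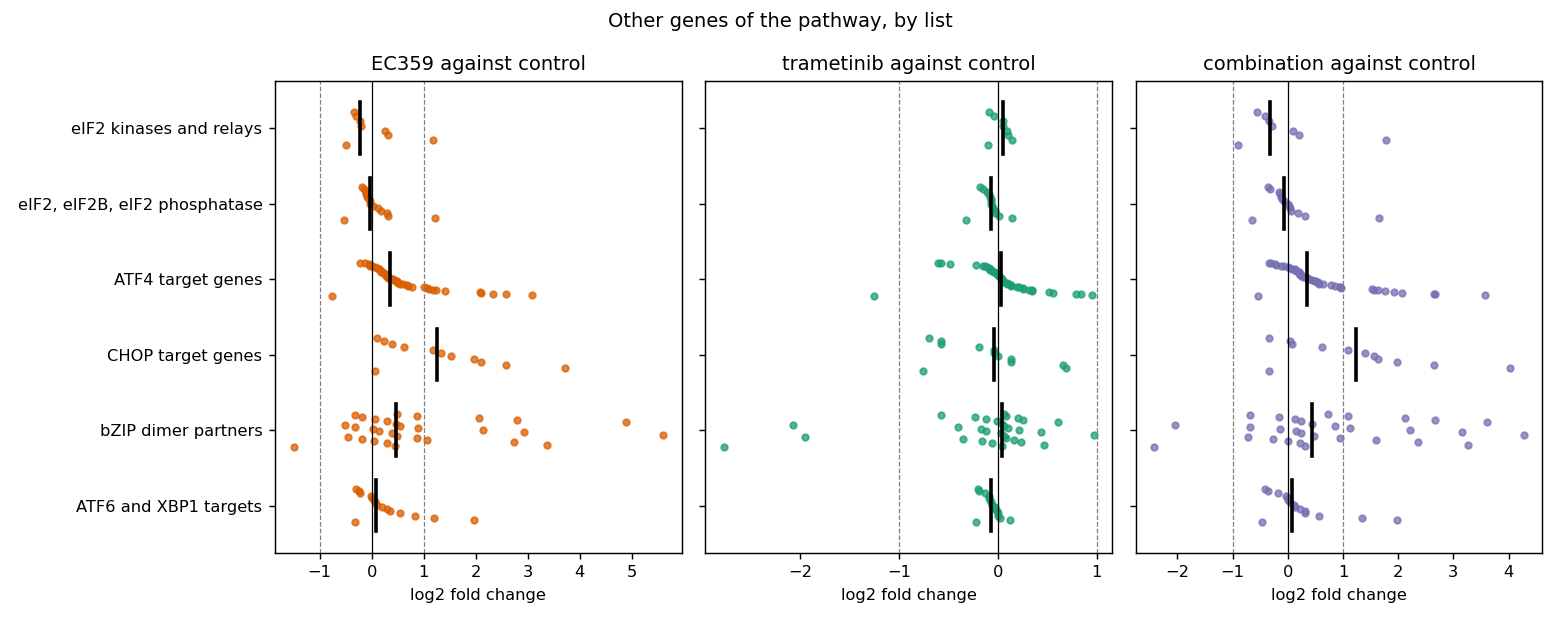
Log2 fold change against control (horizontal axes, whose ranges differ between panels) of each tested gene (points) in 6 lists of other pathway genes, with the list median (black bar) and dashed lines at 2-fold, for EC359, trametinib and the combination. CHOP targets had medians of 1.25 and 1.24 with EC359 and in the combination, and ATF4 targets 0.35 and 0.35. The medians were -0.22 and -0.32 for the kinases and relays, and 0.08 and 0.07 for the ATF6 and XBP1 targets.

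The other arms of the endoplasmic reticulum stress response, read by 16 ATF6 and XBP1 targets, gave 2 higher DEGs (12.5%) with EC359 and in the combination, against 4.19% and 7.27% of all genes, DNAJB9 and HERPUD1 (1.20 and 1.34), a factor of protein degradation at the reticulum. XBP1 had 0.83 and 0.57, EDEM1 0.54 with EC359 and PDIA4 -0.47 in the combination, and the list medians were 0.08 and 0.07.

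Of 34 genes listed as possible bZIP partners of ATF4, ATF3, CHOP or C/EBP factors, 31 were tested. They include CEBPZ, whose protein has no bZIP domain and which was not a DEG (-0.32 with EC359, -0.69 in the combination). Of the 31, 9 (29.0%) were higher DEGs with EC359 and 10 (32.3%) in the combination, against 4.19% and 7.27% of all genes. FOSB (5.61 and 4.28), FOS (4.89 and 3.26), JUN (3.37 and 3.6) and JUNB (2.93 and 2.13), the parts of AP-1, rose most with EC359, and MAFK reached 3.16 in the combination. JUN, a known partner of ATF3, had 236 ± 2.39 CPM in control (SD, n = 3), 2446 ± 7.15 CPM with EC359, 273 ± 5.17 CPM with trametinib and 2872 ± 56.9 CPM in the combination. Lower DEGs were 1, 2 and 3 of the 31 with EC359, in the combination and with trametinib (3.23%, 6.45% and 9.68%, against 2.79%, 5.87% and 0.955% of all genes). They were BATF2 with EC359 (-1.5), BATF2 and FOSL1 in the combination (-2.42 and -2.04) and FOS, FOSL1 and MAFF with trametinib (-2.77, -2.07 and -1.95), of which BATF2, FOSL1 and MAFF were named after their values were seen. FOS and FOSB, like CEBPB and TRIB3, were lower in the combination than with EC359, by log2 fold changes of -1.62 and -1.33.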

How the data were processed

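RNA of 12 OVCAR8 libraries was analysed. Each deposited file holds the estimated counts of 1 library, not normalized, which the authors made, per the file headers, with featureCounts 1.5.0-p1. Pairs of 100 bp reads on the reverse strand, of mapping quality 2 or more, were assigned to the exons of hg38 genes, and reads with several placements were split as fractions. The labels also name HISAT2 and bcl2fastq, whose versions are not given in the sources used here. Between 12.4% and 15.1% of values were not whole, and all were rounded.

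In R 4.3.3, 14865 genes passed edgeR 4.0.16's filterByExpr, set to a count of 10 and a total of 15. A robust quasi-likelihood fit (limma 3.58.1 loaded) with TMM covered the 4 groups, with Benjamini-Hochberg adjustment over all genes tested and a biological coefficient of variation of 3.95%. Calls against control needed an adjusted p under 0.05 and 2-fold, others the adjusted p. A count of 0 allows up to 3 counts, 0.0883 to 0.127 CPM, for counting error only. Correlations used log2 CPM with a pseudocount of 0.5 and genes of at least 10 CPM in the highest group. Promoters came from RefSeq (GRCh38.p14), positions from the deposited files.

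The member genes and lists were chosen with earlier results of these data known. All members are named, as are all kinases and relays, the 4 largest changes per list with EC359 and in the combination, and the 5 genes most like ATF4, ATF3 and DDIT3; exceptions are stated. Alternatives were DESeq2 1.42.0, its size factors, total counts only, unrounded counts, other filters, only the groups compared, a replicate block, each library left out and other fold limits. Tested on simulated data from 14706 genes, the EC359 comparison found 196 of 198 changed genes with 0 false calls. The interaction found 179 of 200 with 11 false calls. Calls against control also needed 2-fold, so the 0 says little about false calls at the adjusted p alone. Recovery of interactions as small as most of those reported for the members was not tested.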

Additional observations from a re-analysis of the deposited data

Results flagged for a closer look

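For 9 of the 10 genes the effect of EC359 differed between cells with and without trametinib (interaction test, edgeR's adjusted p under 0.05). Of all genes tested, 14.4% passed with a positive value and 15.9% with a negative one. The difference was -1.18 for CHAC1, -0.57 for CEBPB, -0.48 for TRIB3, -0.43 for DDIT3 and -0.27 for CEBPG on the log2 scale, where EC359 did less in the presence of trametinib. It was 0.12 for ATF4, 0.39 for PPP1R15A, 0.42 for ATF5 and 0.56 for SESN2, where EC359 did more or, for ATF5, where a value of -0.15 without trametinib stood against 0.27 with it. DDIT3 had log2 fold changes of 0.78 with EC359, 0.47 with trametinib and 0.82 in the combination. Over the alternatives the highest adjusted p was 0.0645 for ATF4 and 0.00465 for the other 8 genes.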

How the results depend on the processing

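Of the log2 fold changes of the 10 member genes under the alternatives, 1012 kept their direction and call, 12 lost the call and 6 changed sign. Of the counts, 379 stayed within 1.5 times and 31 did not. Scaling by total counts only moved the median of all genes to -0.15 with EC359, -0.14 in the combination and -0.16 and -0.17 for these groups against trametinib, and changes should be read relative to that. It then gave 3 higher members in the combination against control (ATF4 and CEBPB under 2-fold), 9 lower ATF4 targets for the combination against trametinib, and 0.0057 for ATF5 with trametinib, a change of sign. DESeq2 gave 0 lower members for EC359 against trametinib, where ATF5 had an adjusted p of 0.0558. With no minimum fold change, members higher and lower were 9 and 1 with EC359, 4 and 1 with trametinib and 10 and 0 in the combination, and ATF4 targets 37 and 3, 15 and 9, and 35 and 6. With at least 2-fold, members higher and lower were 1 and 0 for the combination against EC359 and 5 and 0 against trametinib. They were 5 and 0 for EC359 against trametinib and 0 and 1 for the interaction. ATF4 targets were 2 and 0 for the combination against EC359, 9 and 0 against trametinib and 0 and 2 for the interaction. Shares of all genes were not counted under these alternatives, so the counts show only how the calls depend on the settings.

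Leaving out 1 library at a time gave ranges of 0 to 1 for ATF4 targets higher with trametinib and 0 to 1 for members lower with EC359 against trametinib, where ATF5 lost its call without EC359 replicate 1 or 2 or trametinib replicate 3. The sign turned for ATF5 with trametinib (-0.0646 to 0.0208), DDIT3 in the combination against EC359 (-0.0156 to 0.0708) and CHAC1 in the combination against trametinib (-0.1185 to 0.0628), none of them past the threshold. The cause was not tested.

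Libraries with the same replicate number did not visibly deviate together. Correlations of their deviations ran from -0.078 to 0.052 (18 pairs, 0 over 0.1), against -0.10 to 0.11 for different numbers. A small shared effect could go unseen with 3 libraries per group, so pairing is not excluded. With the replicate block the members higher and lower were 6 and 0 with EC359, 1 and 0 with trametinib, 5 and 0 in the combination, and 5 and 4 for the combination against EC359, as without it, and ATF4 targets higher with EC359 were 11 in place of 10. Depth limits the precision for CHAC1, at 102 to 272 reads per library, and for ATF3 in control, at 88 to 123 reads.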
